A study of Homo sapiens with 4 samples.

Results

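The genes described here handle iron and heme: 10 genes of iron storage, uptake, export and sensing and of heme breakdown, chosen by name (FTH1, FTL, TFRC, SLC40A1, HMOX1, BLVRB, NCOA4, IREB2, ACO1 and STEAP3). All 10 were found among the 16371 genes of the table, with 39 of its 56389 transcripts. RNA was sequenced from cell clusters grown from A549, an established line from a human lung adenocarcinoma, in 2 groups of 2 libraries. The shMock libraries carried a control construct and are labelled wild type, and the shDUSP23 libraries are labelled as a knockdown of DUSP23, a dual-specificity phosphatase. The sources used here do not give the hairpin used, how many hairpins or clones there were, or what SUS in the titles stands for. The labels do not say whether libraries came from separate cultures, and p-values then cover only the spread among these 4 libraries, which may be technical.

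Cells take up iron as transferrin bound to the transferrin receptor, reduce it in the endosome, store the surplus in ferritin and export it through ferroportin. Ferritin is a shell of heavy and light chains, and the autophagy receptor NCOA4 carries it to the lysosome when iron is needed. When iron is scarce, the iron regulatory proteins IRP1 (ACO1) and IRP2 (IREB2) bind a stem-loop in target mRNAs, the iron-responsive element (IRE). Binding near the start of an mRNA blocks translation, as for both ferritin chains and ferroportin, and binding near the end protects the mRNA from decay, as for the transferrin receptor. Heme oxygenase 1 opens heme and frees its iron, and ferritin and heme oxygenase 1 are also known targets of the antioxidant factor NRF2, which is constitutively active in A549 cells.

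The IRE is shown because it occurs in the mRNAs of both ferritin chains, ferroportin and the transferrin receptor. The leading coding transcript of every gene was searched for a C, 5 bases of any kind, the loop CAGTGN and 5 more bases that pair with the first 5 (G-T pairs allowed, sense strand only). Sequences are DNA letters of GENCODE release 29 transcripts (GRCh38), 5′ to 3′, in windows of 30 bases with the 6 loop bases in capitals. The FTL site lies in exon 1, in the 5′ UTR, at chr19:48965335-48965364 (plus strand), and the SLC40A1 site in exon 1, in the 5′ UTR, at chr2:189580660-189580689 (minus strand). The 4 TFRC sites lie in exon 19, in the 3′ UTR, on the minus strand, at chr3:196050978-196051007, chr3:196050574-196050603, chr3:196050509-196050538 and chr3:196050462-196050491.
FTL: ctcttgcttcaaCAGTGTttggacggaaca
SLC40A1: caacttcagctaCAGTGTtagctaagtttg
TFRC site 1: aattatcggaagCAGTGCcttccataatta
TFRC site 2: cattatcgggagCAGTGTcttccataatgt
TFRC site 3: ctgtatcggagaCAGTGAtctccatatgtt
TFRC site 4: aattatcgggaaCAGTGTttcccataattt
A match also lay in the 5′ UTR of FTH1 (exon 1), and the other 6 genes had none in their leading transcript. The pattern occurred in 0.105% of 12370 searched 5′ UTRs, 0.588% of 12915 coding sequences and 0.543% of 12701 3′ UTRs. A match describes letters, not binding, and elements with another loop or an unpaired stem base were not sought, so sites may be missing.

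The deposited values are FPKM (fragments scaled by library size and transcript length), summed here over the transcripts of a gene. Steps between low values put the depth at 21273000, 25285700, 26978400 and 42158600 fragments for shMock 1, shMock 2, shDUSP23 1 and shDUSP23 2. Transcripts at 0 FPKM numbered 2930, 4334, 4814 and 9946 in the same order, so the deepest library, shDUSP23 2, had the most. The cause was not tested, and values of single transcripts in that library are read with this limit. The test was limma on log2(FPKM + 0.5), and below a gene rose or fell where its p, adjusted by Benjamini-Hochberg over every gene tested, was under 0.05. DUSP23 itself stood at 29.96 and 35.9 FPKM in shMock; in shDUSP23 it stood at 1.71 and 2.71 FPKM. Of 13691 tested genes 45.3% were called, 23.1% as higher and 22.2% as lower in shDUSP23. The sum of listed FPKM was smaller in shDUSP23, and scaling every library to equal sums moved the median log2 fold change over all genes from 0.03 to 0.37 and the share of higher genes among those called from 51.0% to 76.2%. All 6 epithelial markers were listed, with sums of 2650.4 and 2561 FPKM in the controls and 2014 and 2085 FPKM in shDUSP23. The sum of all listed FPKM was 540163 and 578361 in shMock and 438604 and 446982 in shDUSP23. On the deposited scale CDH1, KRT18, EPCAM and KRT7 fell, and no other scaling is given for them. The part of these markers in the results below was not tested. Of 10 erythroid markers only EPOR was listed, with 2.08 to 4.64 FPKM.

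In the shDUSP23 clusters the ferritin light chain (FTL), the iron exporter ferroportin (SLC40A1), the iron regulatory protein ACO1 and the ferritin receptor NCOA4 fell, by 3.36 times for SLC40A1, 2.45 times for FTL, 2.32 times for ACO1 and 1.51 times for NCOA4 (ratios of group means, n = 2 libraries per group). None of the 10 genes rose, in limma with Benjamini-Hochberg adjustment or at an unadjusted p under 0.05. The other 6, including the ferritin heavy chain (FTH1), the transferrin receptor (TFRC) and heme oxygenase 1 (HMOX1), did not pass the test on the deposited scale. The count of 4 called genes of 10 is close to the 45.3% of all tested genes that were called. The groups did not overlap in 9 of the 10, against 75.5% of all tested genes. All 10 passed the filter of a mean of at least 1 FPKM, and their median log2 fold change was -0.39 against 0.03 over all tested genes.

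**Figure D1:**
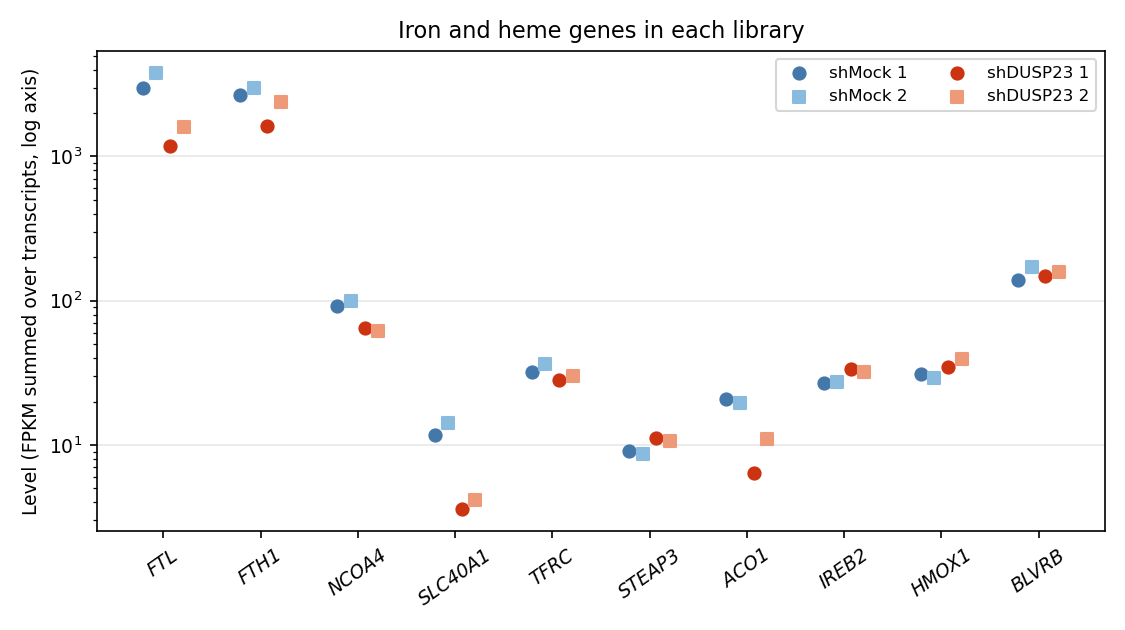
Level of each of the 10 genes (FPKM summed over transcripts, log axis) in the 2 shMock libraries (blue) and the 2 shDUSP23 libraries (red), 1 point per library. The shDUSP23 points of FTL, FTH1, NCOA4, SLC40A1, TFRC and ACO1 lie below both shMock points. Those of BLVRB (149 and 159 FPKM) lie between its shMock points.

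Ferritin mRNAs were the most abundant of these genes. FTL, the light chain that aids mineral formation in the shell (ENSG00000087086, chromosome 19, 48965309 to 48966879, plus strand), had 2973 and 3817 FPKM in shMock and 1185 and 1591 FPKM in shDUSP23. Both shDUSP23 libraries were well below both controls. The mean fell from 3395 ± 596 to 1388 ± 287 FPKM (mean ± SD, n = 2), a log2 fold change of -1.29 (SE 0.19; limma adjusted p 0.000966). The table listed 1 FTL transcript, and its values correspond to 55535 and 84736 fragments in shMock and 28077 and 58886 in shDUSP23, so counting error is small beside the spread between libraries. In bulk samples, fewer cells of a type and less RNA per cell cannot be told apart. By level, FTL stood ninth among all genes in both shMock libraries, and at ranks 25 and 18 in the shDUSP23 libraries.

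FTH1, the heavy chain that oxidises iron as it enters the shell (ENSG00000167996, chromosome 11, 61959718 to 61967634, minus strand), had 2684 and 2976 FPKM in shMock and 1615 and 2373 FPKM in shDUSP23. The groups did not overlap, but the shDUSP23 libraries were far apart. Its log2 difference was -0.53 (SE 0.19, 95% interval -0.97 to -0.09; limma adjusted p 0.0515), just short of a call. Without shDUSP23 replicate 1 it was -0.25, and without shDUSP23 replicate 2 it was -0.81. With the replicate number as a block the adjusted p was 0.0301, and with equal sums the log2 fold change was -0.19 (limma, adjusted p = 0.34).

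Much of the spread of FTH1 lay in 1 of its 11 listed transcripts. FTH1-206, a short coding transcript, had 275 and 608 FPKM in shMock 1 and 2 and 251 and 761 FPKM in shDUSP23 1 and 2, so it was high in 1 library of each group. It made up 10.2% and 20.4% of the FTH1 sum in shMock and 15.5% and 32.1% in shDUSP23. The main transcript FTH1-212 had 2123 and 2063 FPKM in shMock and 1111 and 1288 FPKM in shDUSP23, with close replicates in each group. In a fit over 37453 transcripts, of which 4.15% were called and 2.45% were lower, FTH1-212 fell by 0.81 on the log2 scale (SE 0.11; limma adjusted p 0.0437). FTH1-212 lost this call with equal sums, with the block, with a pseudocount of 0.1 FPKM, without a filter and without any 1 of the 4 libraries. FTH1 without FTH1-206, a sum formed after the values were seen and therefore not tested, was 2409.7 and 2368 FPKM in shMock and 1364 and 1612 FPKM in shDUSP23.

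Transcripts of FTH1 annotated for nonsense-mediated decay, a pathway that destroys mRNAs with an early stop, were higher in both shDUSP23 libraries as a class. FTH1-210, the most abundant of them, had 89.8 and 109 FPKM in shMock and 138 and 151 FPKM in shDUSP23 (log2 fold change 0.54, SE 0.14; limma adjusted p 0.104), and it did not pass. The decay-annotated share of the FTH1 sum was 3.68% and 3.72% in shMock and 9.60% and 7.95% in shDUSP23. FTH1-201, a longer coding form, had 134 and 148 FPKM against 47.7 and 69.2 FPKM, with an adjusted p of 0.0529 in limma. These transcripts share most of their sequence, and how reads were divided between them is not known here.

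**Figure D2:**
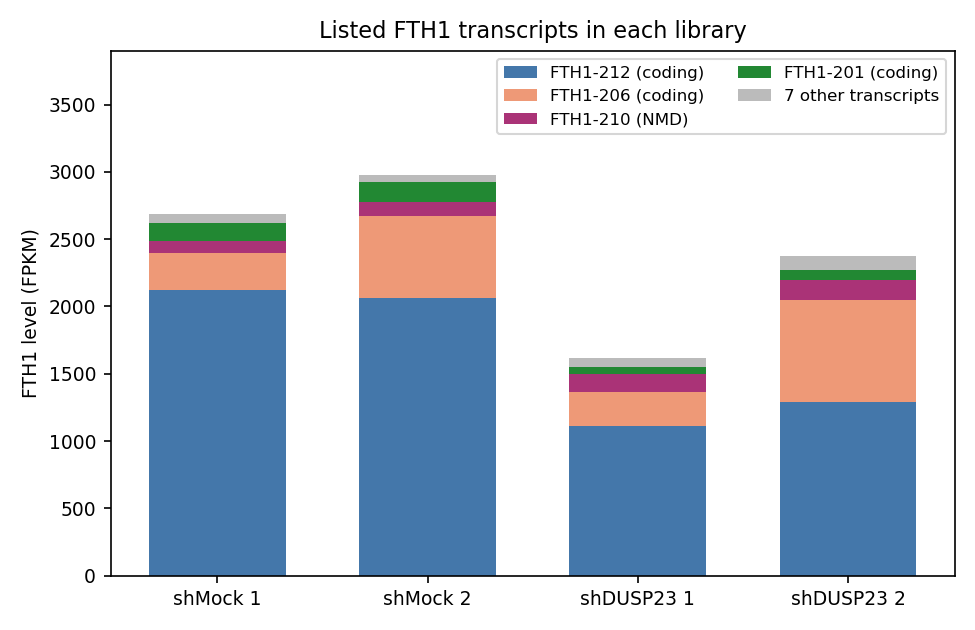
Stacked FPKM of the listed FTH1 transcripts in each library (NMD: annotated for nonsense-mediated decay). The FTH1-212 segment is 2123 and 2063 FPKM in shMock and 1111 and 1288 FPKM in shDUSP23, while the FTH1-206 segment is larger in replicate 2 of both groups.

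The balance of the ferritin chains can be read as a ratio. FTH1 over FTL, as a ratio of FPKM, was 0.903 and 0.780 in shMock and 1.36 and 1.49 in shDUSP23, so FTL was the higher chain in both controls and FTH1 in both knockdown libraries. The ratio is free of library scaling, but it includes the uneven transcript FTH1-206. Without that transcript FTH1 had 1364 and 1612 FPKM in shDUSP23 1 and 2, against 1185 and 1591 FPKM for FTL. Both chains were then close in shDUSP23 2. The ratio was formed after the values were seen. As 2 against 2 libraries cannot give an exact two-sided permutation p below 0.333, it is given with no test. Both chains together had 5658 and 6793 FPKM in shMock and 2800.4 and 3964 FPKM in shDUSP23. They made up 1.05% and 1.17% of the listed FPKM in shMock and 0.638% and 0.887% in shDUSP23.

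Both ferritin genes have processed pseudogenes, and reads may be divided between gene and copy. The 4 listed copies, FTH1P2, FTH1P8, FTH1P10 and FTLP3, stood between 0.432 and 2.63 FPKM, far below the genes. FTLP3 had 1.69 and 2.63 FPKM in shMock and 0.702 and 0.987 FPKM in shDUSP23 and fell (log2 fold change -0.97, limma adjusted p 0.0432). It passed the filter of 1 FPKM only through its shMock values. Its reads may be shared with FTL, so its fall is not read as separate from that of FTL.

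NCOA4, which delivers ferritin to autophagosomes (ENSG00000266412, chromosome 10, 46005088 to 46030623, minus strand), had 91.3 and 99.8 FPKM in shMock and 65.2 and 61.3 FPKM in shDUSP23. Replicates were close and the groups did not overlap. Its log2 difference was -0.59 (SE 0.12; limma adjusted p 0.00405), and with equal sums it was -0.26 and no longer called (adjusted p = 0.109). Of its 4 listed transcripts NCOA4-204 held most of the sum, with 76.0 and 77.3 FPKM against 57.4 and 50.9 FPKM. NCOA4-207 fell from 14.1 and 14.7 FPKM to 5.75 and 5.73 FPKM (log2 fold change -1.25, SE 0.17; limma over transcripts, adjusted p = 0.0422), and its share of the NCOA4 sum was 15.4% and 14.7% in shMock and 8.83% and 9.34% in shDUSP23. NCOA4-207 lost its call with equal sums, with the block, without a filter and without any 1 of the 4 libraries.

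SLC40A1 encodes ferroportin, the known exporter of iron from cells (ENSG00000138449, chromosome 2, 189560590 to 189580786, minus strand). It had 11.8 and 14.1 FPKM in shMock and 3.59 and 4.12 FPKM in shDUSP23, which correspond to 865, 1229, 334 and 598 fragments of its 1 listed transcript. Both shDUSP23 libraries were well below both controls, and the mean fell from 13.0 ± 1.63 to 3.86 ± 0.375 FPKM (mean ± SD, n = 2). The log2 fold change of -1.63 (SE 0.19; limma adjusted p 0.00036) had the largest size among the 10 genes. Like those of FTL and ACO1, the fall of SLC40A1 was called under all 18 alternative settings.

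Neither uptake gene passed the test on the deposited scale. TFRC, the transferrin receptor (ENSG00000072274, chromosome 3, 196049284 to 196082090, minus strand), had 32.2 and 36.7 FPKM in shMock and 28.04 and 29.96 FPKM in shDUSP23. The difference did not pass (log2 fold change -0.24, 95% interval -0.54 to 0.06; limma adjusted p 0.169), and with equal sums its sign turned, to 0.09. STEAP3, the endosomal reductase that prepares iron for transport into the cytosol (ENSG00000115107, chromosome 2, 119223831 to 119265652, plus strand), had 9.03 and 8.66 FPKM in shMock and 11.1 and 10.6 FPKM in shDUSP23. Its log2 fold change was 0.28 (95% interval -0.09 to 0.65; limma, adjusted p = 0.183), 0.62 with equal sums (adjusted p = 0.0233) and -0.09 corrected for GC and length. The ratio of TFRC to SLC40A1, import receptor to exporter, was 2.72 and 2.60 in shMock and 7.80 and 7.27 in shDUSP23, formed after the values were seen and not tested.

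Of the iron regulatory proteins, ACO1 fell and IREB2 did not pass, and the difference between them was not tested. ACO1, whose protein IRP1 also serves as the cytosolic aconitase (ENSG00000122729, chromosome 9, 32384620 to 32454769, plus strand), had 20.9 and 19.6 FPKM in shMock and 6.35 and 11.1 FPKM in shDUSP23. Both knockdown libraries were lower, though unequal. Its log2 difference was -1.22 (SE 0.24; limma adjusted p 0.00384), between -0.84 without shDUSP23 replicate 1 and -1.60 without shDUSP23 replicate 2. Its 2 listed transcripts are coding, and ACO1-202 held 91.6% to 95.7% of the sum.

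IREB2, whose protein IRP2 is degraded when iron is plentiful (ENSG00000136381, chromosome 15, 78438216 to 78501453, plus strand), had 26.9 and 27.2 FPKM in shMock and 33.6 and 32.2 FPKM in shDUSP23. The groups did not overlap, but the difference did not pass (log2 fold change 0.28, 95% interval -0.01 to 0.56; limma adjusted p 0.0998). It was called with equal sums (0.61, adjusted p = 0.00684) and corrected for GC and length (0.42, adjusted p = 0.0177). The main coding transcript IREB2-201 had 20.3 FPKM in both shMock libraries and 24.4 and 22.3 FPKM in shDUSP23. The decay-annotated share of IREB2 was 16.3%, 15.0% and 14.5% in shMock 1, shMock 2 and shDUSP23 1 and 27.6% in shDUSP23 2. The ratio of IREB2 to ACO1 was 1.29 and 1.39 in shMock and 5.30 and 2.90 in shDUSP23, likewise without a test.

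**Figure D3:**
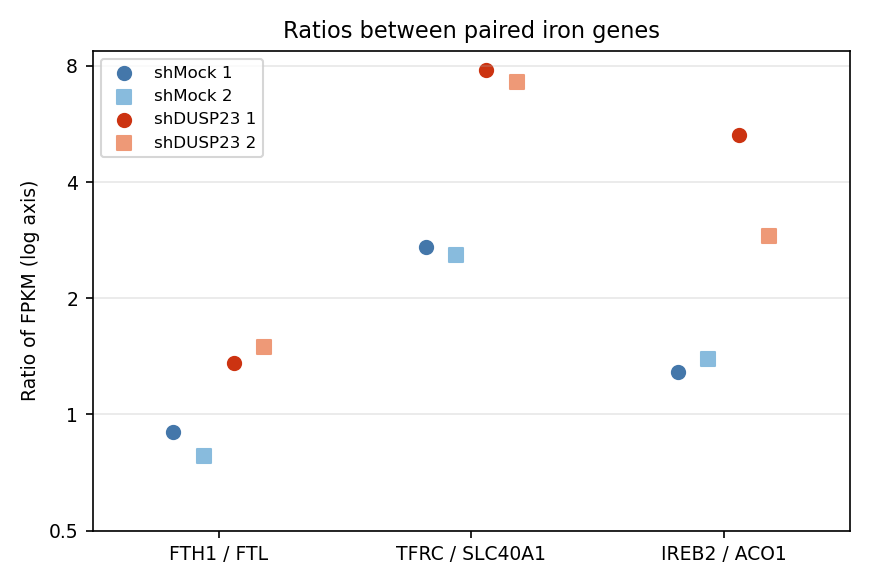
Ratios of FPKM within each library (log axis), 1 point per library: FTH1 over FTL, TFRC over SLC40A1 and IREB2 over ACO1. In each ratio both shDUSP23 points (red) lie above both shMock points (blue); the ratios were chosen after the values were seen.

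Heme breakdown genes did not pass on the deposited scale. HMOX1, the inducible heme oxygenase (ENSG00000100292, chromosome 22, 35381096 to 35394212, plus strand), had 31.1 and 29.1 FPKM in shMock and 34.6 and 39.4 FPKM in shDUSP23. Its log2 difference was 0.29 (95% interval -0.01 to 0.59; limma adjusted p 0.103), 0.63 with equal sums (adjusted p = 0.00766) and 0.11 corrected for GC and length (adjusted p = 0.447). Part of its spread lay in HMOX1-206, which had 5.23 and 0 FPKM in shMock and 1.46 and 15.1 FPKM in shDUSP23. The main transcript HMOX1-201 had 25.9 and 29.1 FPKM against 33.1 and 24.3 FPKM, so its groups overlapped.

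BLVRB, the biliverdin reductase and flavin reductase (ENSG00000090013, chromosome 19, 40447765 to 40465764, minus strand), had 140.1 and 171 FPKM in shMock and 149 and 159 FPKM in shDUSP23. It is the gene whose groups overlapped. Its log2 difference was -0.01 (SE 0.13), with a 95% interval of -0.30 to 0.29 in limma. With equal sums BLVRB was higher (0.33; limma adjusted p 0.0461). BLVRB-201 carried 86.7% to 91.6% of its sum.

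**Figure D4:**
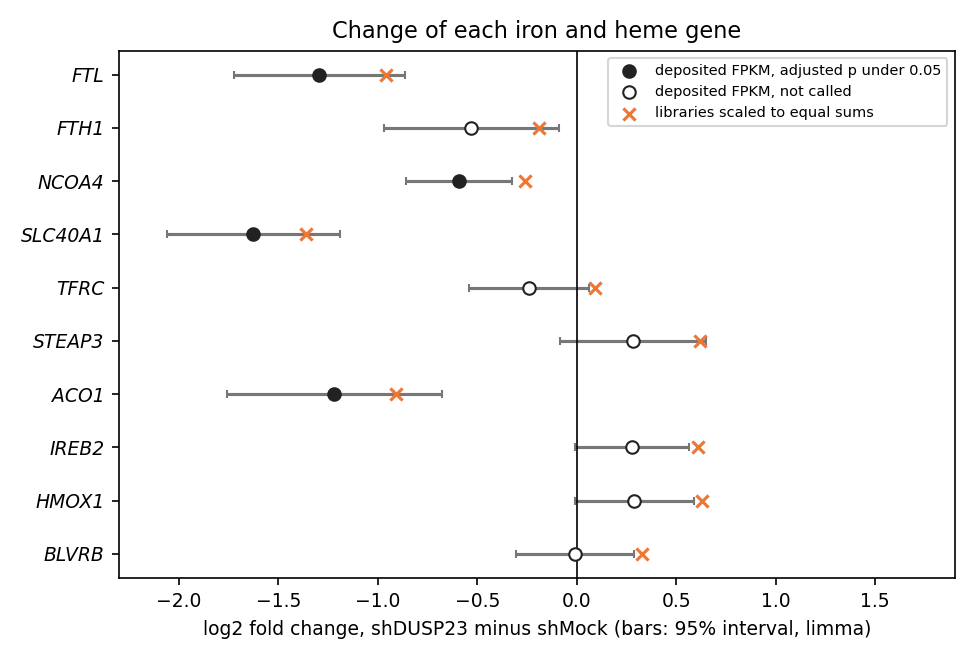
Log2 fold change (shDUSP23 minus shMock) of each gene with its 95% interval from limma (filled circles: called, open circles: not called) and, as crosses, after scaling every library to the same sum. FTL, SLC40A1, ACO1, FTH1 and NCOA4 stay below 0 on both scales, while the cross of TFRC lies above 0. On the deposited scale these 5 genes are at -1.29, -1.63, -1.22, -0.53 and -0.59.

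The counts moved with the scaling. With equal sums 7 of the 10 genes were called, 3 as lower (FTL, SLC40A1, ACO1) and 4 as higher (HMOX1, BLVRB, IREB2, STEAP3), where 47.2% of 14951 tested genes were called, 35.9% as higher and 11.3% as lower. The median of the 10 genes was then -0.05 against 0.37 over all tested genes. Corrected for GC and length, 44.4% of all tested genes were called, 22.6% as higher and 21.8% as lower, and of the 10 genes IREB2 rose while FTL, SLC40A1, ACO1 and NCOA4 fell. With both adjustments, a setting chosen after seeing the data, 46.4% of all tested genes were called, 36.1% as higher and 10.2% as lower, and of the 10 genes HMOX1 and IREB2 rose and FTL, SLC40A1 and ACO1 fell.

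The rest of the pathway was read through 10 lists of other genes, 111 in all, of which 99 were tested, 20 rose and 34 fell, where 23.1% of all tested genes rose and 22.2% fell. Their median log2 fold change was -0.20 against 0.03 over all tested genes. The balance of rises and falls moved with the scaling, here and over all tested genes. With equal sums 29 of 100 tested genes of the lists rose and 15 fell (median 0.13). Over all tested genes 35.9% then rose and 11.3% fell (median 0.37). With GC and length correction added 33 genes of the lists rose and 13 fell (median 0.18). In that setting 36.1% of all tested genes rose and 10.2% fell (median 0.36). The list median lay below that of all tested genes in each of these settings. Most genes named below for a small count were chosen after their values were seen, beyond the 3 of smallest p in each list.

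Of 9 tested genes of iron entry and endosomal transport 3 rose (LCN2, SLC39A14 and MCOLN1) and 3 fell (STEAP1, STEAP2 and CYB561A3). The call of MCOLN1 was lost in 8 of 18 alternatives and that of CYB561A3 in 3, and the other 4 were called in all 18. STEAP1, a relative of STEAP3, had 53.6 and 74.4 FPKM in shMock and 10.1 FPKM in both shDUSP23 libraries (log2 fold change -2.59). STEAP2, a metalloreductase of the same family, had 13.8 and 18.4 FPKM against 4.68 and 4.04 FPKM. LCN2, the siderophore-binding protein lipocalin 2, had 7.39 and 7.20 FPKM against 31.3 and 60.5 FPKM (log2 fold change 2.498). STEAP3 did not pass, and its difference from these relatives was not tested. SLC11A2, the endosomal iron transporter DMT1, had 18.95 and 22.5 FPKM against 13.7 and 18.3 FPKM and did not pass.

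Of 12 genes listed as iron chaperones and partners of storage and export only 5 were in the table, all tested. CP, the ferroxidase ceruloplasmin that works with ferroportin, fell from 115 and 132 FPKM to 29.9 and 32.9 FPKM (log2 fold change -1.96; limma adjusted p 3.74e-05). BMP6, a ligand that drives hepcidin in the liver, had 7.28 and 7.20 FPKM against 2.496 and 3.998 FPKM and fell, a call lost without either shMock library. Of the poly(C)-binding proteins that hand iron to ferritin, PCBP2 fell by 0.43 and PCBP1 rose by 0.41 on the log2 scale. PCBP1 lost its call without a trend, without shMock replicate 2 (0.32) and without either shDUSP23 library (0.43 and 0.39). PCBP2 lost its call in 6 alternatives: with equal sums, quantile normalization or coding transcripts alone, without a trend, and without either shDUSP23 library. With equal sums and GC and length correction together, PCBP2 had the opposite sign, 0.03.

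Of 11 genes of iron sensing and ferritinophagy 4 rose (MAP1LC3B, GABARAPL1, ATG9A and GABARAP) and 4 fell (TAX1BP1, SKP1, RBX1 and FBXL5); with equal sums the 4 falls were no longer called, and with GC and length correction added the signs of TAX1BP1, SKP1 and FBXL5 turned. GABARAP lost its call in 4 of 18 alternatives. MAP1LC3B, which coats autophagosomes, had 49.1 and 37.5 FPKM in shMock and 77.6 and 76.4 FPKM in shDUSP23. TAX1BP1, an adaptor of NCOA4-bound ferritin, had 127 and 124 FPKM against 84.5 and 78.6 FPKM. FBXL5, the iron-sensing part of the ligase that degrades IRP2, had 34.9 and 35.7 FPKM against 27.3 and 26.6 FPKM.

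Of 8 transcription factors known to act on ferritin or HMOX1 3 rose (MAFF, MAFG and BACH1) and 1 fell (HIF1A). HIF1A lost its call in 8 of 18 alternatives, and its sign turned with equal sums and GC and length correction. BACH1, a heme-binding repressor of HMOX1 and ferritin genes, had 11.8 and 10.01 FPKM in shMock and 28.1 and 23.7 FPKM in shDUSP23 (log2 fold change 1.21, SE 0.16; limma adjusted p 0.000639). MAFF, a small MAF partner of such factors, had 12.2 and 9.74 FPKM against 53.1 and 47.9 FPKM, and MAFG had 26.96 and 25.6 FPKM against 66.3 and 64.9 FPKM. NFE2L2, which encodes NRF2, had 68.4 and 55.9 FPKM against 57.4 and 53.3 FPKM and did not pass. KEAP1, its inhibitor, had 18.8 and 17.6 FPKM against 19.1 FPKM in both shDUSP23 libraries.

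Of 5 tested genes listed for an IRE besides those above 0 were called by limma on the deposited scale (1 at an unadjusted p under 0.05) and 2 when corrected for GC and length. EPAS1, a hypoxia factor, had 83.6 and 79.5 FPKM in shMock and 62.1 and 70.1 FPKM in shDUSP23. In the letter search 13 genes held the pattern in their 5′ UTR. Among 11 tested, 2 rose (CSF1 and ADGRD1), 4 fell (SLC4A4, SLC40A1, FTL and ENC1) and 5 did not pass, among them FTH1. SLC4A4 had 3.53 and 3.75 FPKM in shMock and 0 FPKM in both shDUSP23 libraries. It passed the filter of 1 FPKM only through its shMock values, so it could be counted only as a fall. SLC40A1, FTL and FTH1 are genes already described above. ENC1 (limma adjusted p 0.0495) lost its call in 12 alternatives and kept it in 6. For comparison, 23.1% of all tested genes rose and 22.2% fell, and a difference of the pattern's genes from the rest was not tested. CSF1, a macrophage growth factor for which the match is a matter of letters, had 17.8 and 15.1 FPKM against 73.6 and 91.1 FPKM.

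Of 12 tested genes of heme synthesis and its mitochondrial transport 0 rose in limma (1, ALAS1, at an unadjusted p under 0.05) and 3 fell, among them UROS and UROD. UROS, which makes uroporphyrinogen III, had 32.3 and 35.1 FPKM in shMock and 17.7 and 16.1 FPKM in shDUSP23 (log2 fold change -0.97; limma adjusted p 0.000794), and UROD, which acts on its product, had 20.4 and 22.9 FPKM against 13.9 and 13.1 FPKM. ALAS1, the rate-limiting first enzyme, had 24.3 and 19.7 FPKM against 27.6 and 29.9 FPKM and did not pass (log2 fold change 0.39). With equal sums 2 genes of this list rose and 2 fell, UROD losing its call, and with GC and length correction added 3 rose and 2 fell.

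Of 10 tested genes of heme breakdown and transport 3 rose (FLVCR2, SLC48A1 and ABCC5) and 1 fell (PGRMC1), whose sign turned with equal sums and GC and length correction. ABCC5 lost its call in 10 of 18 alternatives, PGRMC1 in 8 and SLC48A1 in 7. FLVCR2, a relative of the heme exporter FLVCR1, had 2.48 and 1.69 FPKM in shMock and 4.51 and 5.61 FPKM in shDUSP23, and SLC48A1, which carries heme out of lysosomes, had 13.3 and 14.2 FPKM against 17.5 and 23.3 FPKM. Without shMock replicate 2 limma called 0 of this list. HMOX2, the constitutive heme oxygenase, had 28.03 and 27.7 FPKM against 23.9 and 31.3 FPKM, and BLVRA, the main biliverdin reductase, had 50.97 and 63.9 FPKM against 58.7 and 59.8 FPKM. Neither passed, like HMOX1 and BLVRB.

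Of 21 genes of mitochondrial iron and iron-sulfur assembly 2 rose (SLC25A37 and ISCU) and 12 fell, with a median log2 fold change of -0.54, and with equal sums 2 rose and 6 fell (median -0.21). With GC and length correction added to equal sums 6 rose and 5 fell (median -0.05). The medians over all tested genes in these settings were 0.03, 0.37 and 0.36, in the same order. The call of ISCU was lost in 8 of 18 alternatives. SLC25A37, the mitochondrial iron importer mitoferrin 1, had 86.2 and 82.3 FPKM in shMock and 181 and 190.2 FPKM in shDUSP23 (log2 fold change 1.13). LYRM4, a partner of the cysteine desulfurase, had 16.8 and 17.8 FPKM against 6.25 and 6.62 FPKM, and NDUFAB1, the mitochondrial acyl carrier protein, had 114 and 139 FPKM against 59.2 and 49.4 FPKM. Without shMock replicate 2 the called genes of this list numbered 6.

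Of 9 genes of cytosolic iron-sulfur assembly 1 rose (CIAO2B) and 4 fell (CIAO2A, NUBP1, CIAO1 and NUBP2). With equal sums 2 rose and 1 fell, and with GC and length correction added 1 rose and 0 fell in limma, where CIAO2A was at -0.12. CIAO2A, a cluster targeting factor known to act on IRP1, had 112 and 119 FPKM in shMock and 62.1 and 61.4 FPKM in shDUSP23 (log2 fold change -0.89). Calls in this list numbered 1 to 3 when any 1 library was left out. Of 11 ferroptosis regulators 3 rose (SLC3A2, AIFM2 and CHAC1) and 3 fell (SLC7A11, VDAC3 and LPCAT3), and with equal sums 7 rose and 2 fell. SLC7A11 and SLC3A2, which together form the cystine importer, went from 47.1 and 48.7 to 23.8 and 24.8 FPKM for SLC7A11 and from 235 and 202 to 391 and 370.2 FPKM for SLC3A2.

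**Figure D5:**
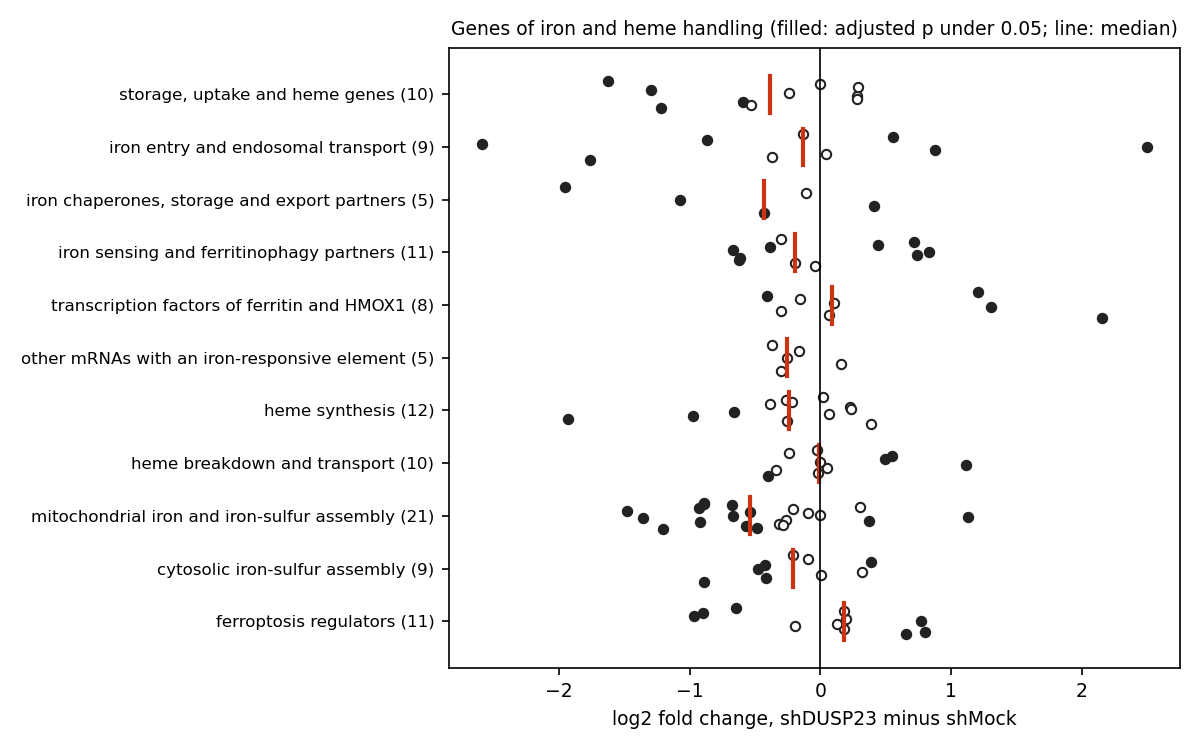
Log2 fold change (shDUSP23 minus shMock) of each tested gene of iron and heme handling, by list, with the number tested in brackets (filled: adjusted p under 0.05 in limma, open: not called, red line: list median). The mitochondrial list lies mostly below 0 on this deposited scale, with a median of -0.54 (-0.21 with equal sums and -0.05 with GC and length correction added). Medians over all tested genes are 0.03, 0.37 and 0.36 in the same order. The transcription factor list holds 3 called rises.

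Macrophages recycle iron and are rich in ferritin, so their markers were read beside these genes. Of 10 macrophage markers 3 were listed, and PTPRC, CD163, MARCO, LYZ, CSF1R, MRC1 and FCGR1A were not. The listed ones summed to 31.05 and 33.7 FPKM in shMock and 103 and 137 FPKM in shDUSP23, mostly from CD68, a lysosomal protein gene with 24.4 and 23.5 FPKM against 94.9 and 130.9 FPKM. ITGAM rose and CD14 fell, and their part in the results was not tested. Of 10 fibroblast and endothelial markers 3 were listed, with sums of 2.60 to 4.90 FPKM.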

How the data were processed

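Per the labels' protocols, an mRNA kit turned total RNA of A549 clusters into libraries, read on a NovaSeq instrument. The authors deposited FPKM values, 1 per Ensembl transcript and library. STAR 2.7.1a, DESeq2 1.32.0 and GRCh38 are named in the submitters' processing notes, without a role. The sources used here name no quantifier, annotation release, strandedness or filter.

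Values were summed per gene ID. The test was limma 3.58.1 in R 4.3.3 (linear model, moderated with an intensity trend, two-sided, no covariate) on log2(FPKM + 0.5), for genes averaging 1 FPKM or more, with Benjamini-Hochberg adjustment over all genes. Transcripts were tested alike. The pseudocount understates changes of low genes. Fragment totals came from 2312 single-transcript genes, where 91.1% to 93.4% of values up to 50 fragments were whole within 0.1 fragment. Lengths, GC content and sequences came from GENCODE release 29, which held 93.6% of listed transcripts. The fit was tested on simulated data. Python 3.11.15, pandas 2.3.3 and matplotlib 3.10.9 made tables and figures.

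The genes and lists were chosen with earlier results of these data known. Named by rule were the 10 genes, DUSP23, transcripts holding at least 5% of a gene, and the 3 tested genes of smallest p in each list. Alternatives were other pseudocounts, filters, scalings and variance models, the replicate block, GC and length correction, coding transcripts alone and leaving out each library; equal sums with GC correction was added after the data were seen. A gene that this rule names is not reported here.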

Additional observations from a re-analysis of the deposited data

How the results depend on the processing

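The falls of FTL, SLC40A1 and ACO1 were called under all 18 alternatives, at -1.51 to -0.80, -1.75 to -1.21 and -1.60 to -0.84 on the log2 scale. With equal sums 7 of the 10 genes were called, NCOA4 lost its call (-0.26), HMOX1 (0.63), IREB2 (0.61) and STEAP3 (0.62) gained one, and the sign turned for TFRC (0.09), BLVRB (0.33), EPAS1 (0.03), CDC42BPA (0.07), HMOX2 (0.31) and NFE2L2 (0.17); calls numbered 4 in iron sensing, 8 in the mitochondrial list, 3 in cytosolic assembly and 0 among transcripts of the 10 genes. With equal sums and GC and length correction, chosen after seeing the data, NCOA4 was not called (-0.14), HMOX1 (0.44) and IREB2 (0.78) were, and the sign turned for TFRC (0.21), BLVRB (0.22), PCBP2 (0.03), TAX1BP1 (0.01), SKP1 (0.18), SLC11A2 (0.03), CDC42BPA (0.09), PGRMC1 (0.18), HIF1A (0.17), HMOX2 (0.17), NFE2L2 (0.26) and FBXL5 (0.21); calls numbered 5 in iron sensing, 5 in heme synthesis and 1 in cytosolic assembly. GC and length correction, with or without the replicate block, gave IREB2 0.42 (called), STEAP3 -0.09 and KEAP1 -0.29 (signs turned), and 2 calls each among other IRE mRNAs and in heme breakdown.

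FTH1 was called at -0.53 with a mean of at least 5 FPKM, with robust eBayes and with the replicate block, at -0.42 with the block and GC correction, and at -0.61 on coding transcripts alone. The deviations of same-numbered libraries had a correlation of 0.05 across genes, over only 2 pairs, which did not show a pairing and cannot exclude one; their column names share a tag whose meaning is not known here. With the block 6707 of all genes, 5 of the 10 genes and 0 of their transcripts were called. Median-ratio rescaling gave BLVRA -0.01 (sign turned), 1 call among other IRE mRNAs and 2 in heme breakdown, where quantile normalization also gave 2 and turned BLVRB to 0.18. Without a trend calls numbered 2 among chaperones, 1 in heme breakdown and 1 in cytosolic assembly, and on coding transcripts 3 in the last. Transcripts of the 10 genes had 0 calls without a filter and 5 with a pseudocount of 1 FPKM.

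Leaving out each library in turn, where a lone library was assumed to vary like the other group, gave 3258 (without shMock replicate 2) to 6391 called genes in all, 3935 without shMock replicate 1, and 4 of the 10 genes each time. Calls ranged from 2 to 3 among chaperones, 5 to 6 in iron sensing, 0 to 1 among other IRE mRNAs, 0 to 3 in heme breakdown, 6 to 14 in the mitochondrial list, 1 to 3 in cytosolic assembly, 3 to 6 in ferroptosis and 0 to 0 among transcripts. Values ranged from -0.15 to 0.14 for BLVRB, with 0.04 without shDUSP23 replicate 1, where HMOX2 was 0.16 (-0.22 without shDUSP23 replicate 2). BLVRA was -0.11 without shMock replicate 1, and FTH1-206 was -0.48 without it and ranged from -0.70 (without shDUSP23 replicate 2) to 0.90. The cause of these shifts was not tested. With 2 libraries per group, log2 differences of about the size seen for IREB2 or HMOX1 were not resolved on the deposited scale.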
